A study of Mus musculus with 24 samples.

Results

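The Toll-like receptor genes Tlr1 to Tlr9 and Myd88, the adaptor that most of these receptors share, were followed in RNA sequencing of cells sorted from mouse ileum. The 10 genes were taken by symbol from a table of read counts on 39056 genes, and all 10 were found. The sort separated live hematopoietic cells (CD45+) from live epithelial, endothelial and stromal cells (CD45-), after part of the epithelial cells had been mixed with the lamina propria cells. Each fraction held 3 libraries of each of 4 genotypes, so that there were 24 libraries in 8 groups. Mice were either Hoil1+/+ or Hoil1-/- and, with each of these, either Il4raflox/flox or Il4raflox/flox+Vil1cre, all labelled C57BL/6 (C57BL/6J in the methods of the study) and 9 to 10.3 weeks old. Every mouse carried Il4ra flanked by loxP sites, so no group has an unmodified Il4ra gene. The Vil1cre transgene expresses Cre in intestinal epithelial cells and removes Il4ra there. The label of a CD45+ library with Vil1cre therefore describes the epithelium of the mouse that its cells came from. HOIL1, encoded by Rbck1, is a subunit of the ubiquitin ligase that builds linear ubiquitin chains. Per the study, Hoil1-/- mice are only partly deficient, as they still make a small amount of the N-terminal part of the protein. The comparisons ask where the receptors are transcribed and whether that differs in Hoil1-/- mice or without epithelial Il4ra. The study removed 3 libraries as outliers, all Hoil1-/-. Tests were made on the other 21 libraries, and levels are shown for all 24.

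Toll-like receptors recognize conserved microbial molecules. TLR2 pairs with TLR1 or TLR6 to bind bacterial lipoproteins, TLR4 binds lipopolysaccharide with MD-2, and TLR5 binds flagellin, all at the cell surface. TLR3, TLR7, TLR8 and TLR9 sit in endosomes, where TLR3 binds double-stranded RNA, TLR7 and TLR8 single-stranded RNA and its breakdown products, and TLR9 unmethylated CpG DNA. MYD88 carries the signal of every one of these receptors except TLR3 to IRAK kinases and TRAF6, and linear ubiquitin chains made downstream help to activate the NF-κB pathway. In the intestine these receptors are best known from macrophages, dendritic cells and B cells, and from restricted use on epithelial cells.

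The labels were checked first. Rbck1 was at 5.38 to 15.9 CPM (read counts relative to library size, with TMM scaling) in the 6 Hoil1-/- and 90.4 to 158 CPM in the 6 Hoil1+/+ CD45+ libraries, and at 0 to 7.29 CPM against 73.3 to 110 CPM in CD45- libraries. Ptprc, which encodes CD45, was at 252 to 755 CPM in CD45+ and 0 to 16.1 CPM in CD45- libraries, and the epithelial gene Epcam was at 7.01 to 68.8 CPM and 163 to 1270 CPM. Deletion of Il4ra in epithelial cells could not be checked from whole-gene counts of mixed cells. Counts on genes ranged from 14.9 to 76.8 M in CD45+ and from 6.03 to 68.3 M in CD45- libraries, so that the level of 3 counts, taken as the least that the depth can show, was at most 0.186 CPM in CD45+ and 0.416 CPM in CD45- libraries.

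The endosomal receptors Tlr7, Tlr8 and Tlr9 were found in every CD45+ library and were at or near 0 in CD45- libraries. Tlr9 (ENSMUSG00000045322.10, chr9:106222598-106226883, plus strand, GRCm38) ranged from 54.1 to 106 CPM with a median of 72.5 CPM over the 12 CD45+ libraries whereas all 12 CD45- libraries were without a count. Set against the highest 3-count level of a CD45- library, its CD45+ mean of 74.04 ± 14.01 CPM (SD, n = 12) was at least 178-fold higher. Tlr8 (chrX:167242696-167264329, minus strand) ranged from 16.5 to 57.1 CPM with a median of 32.0 CPM in CD45+ libraries. In CD45- cells, 16 counts in 1 Hoil1+/+Il4raflox/flox+Vil1cre library made 1.58 CPM, and the other 11 libraries had none. Tlr7 (chrX:167304929-167330558, minus strand) ranged from 28.5 to 88.4 CPM with a median of 58.7 CPM in CD45+ libraries and reached at most 0.967 CPM in CD45- libraries, 4 of which had any count. The ratio of the mean levels was 250 for Tlr8 and 232 for Tlr7. For both genes and Tlr9, every CD45+ library lay above every CD45- library.

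Tlr3 (chr8:45395665-45411080, minus strand), the receptor of double-stranded RNA, was the only one of the 10 genes with a higher mean in CD45- cells. It ranged from 6.71 to 32.4 CPM with a median of 11.8 CPM in CD45+ libraries, and from 8.31 to 27.5 CPM with a median of 18.3 CPM in CD45- libraries. The fractions overlapped, and the log2 fold change of CD45+ over CD45- was -0.54 (edgeR's quasi-likelihood test with Benjamini-Hochberg adjustment, SE 0.27, adjusted p = 0.109). The 95% interval of this difference ran from -1.11 to 0.03 on the log2 scale. The call turned on the tool and on 1 library, since DESeq2 gave an adjusted p of 0.0450 and the edgeR fit without the CD45+ Hoil1-/-Il4raflox/flox replicate 3, where Tlr3 was at 32.4 CPM, gave a log2 fold change of -0.89 and an adjusted p of 0.00851. Gm45542, an antisense gene that shares 381 exon bases with Tlr3, was not analysed here, and whether counting used strand is not given in the sources used here.

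Of the cell-surface receptors, Tlr1, Tlr5 and Tlr6 were at low levels in CD45- cells. Tlr1 (chr5:64924679-64933563, minus strand) had 37.2 to 102 CPM with a median of 50.9 CPM in CD45+ libraries and 0 to 9.66 CPM with a median of 2.27 CPM in CD45- libraries. Its log2 fold change was 4.59 (edgeR, SE 0.60, adjusted p = 9.52e-06). Tlr6 (chr5:64952031-64960097, minus strand), the neighbour and close relative of Tlr1, had 6.80 to 20.97 CPM with a median of 11.6 CPM in CD45+ libraries. In CD45- libraries Tlr6 reached at most 2.71 CPM, and 6 of 12 had any count. How reads that match both Tlr1 and Tlr6 were counted is not given in the sources used here. Tlr5 (chr1:182954788-182976044, plus strand) ranged from 2.50 to 11.6 CPM with a median of 8.49 CPM in CD45+ libraries, and from 0 to 2.00 CPM in CD45- libraries, 8 of which had no count. No CD45+ library of these receptors fell within the CD45- range, and the ratio of the mean levels was 20.3 for Tlr1, 20.4 for Tlr6 and 17.8 for Tlr5.

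Tlr2 and Tlr4 were found in both fractions. Tlr2 (chr3:83836272-83841767, minus strand) ranged from 12.6 to 92.8 CPM with a median of 42.1 CPM in CD45+ libraries, and from 0 to 17.6 CPM with a median of 10.7 CPM in CD45- libraries. Only 1 CD45+ library, the Hoil1-/-Il4raflox/flox replicate 3, lay within the CD45- range, and the log2 fold change was 2.61 (edgeR, SE 0.42, adjusted p = 7.51e-05). Without the CD45- Hoil1-/-Il4raflox/flox replicate 2, which leaves its group with 1 library that held no count of Tlr1 or Tlr2, the log2 fold changes were 6.83 for Tlr1 and 4.69 for Tlr2. Tlr4 (chr4:66827584-66930284, plus strand) ranged from 5.38 to 33.6 CPM with a median of 21.4 CPM in CD45+ libraries, and from 0 to 22.99 CPM with a median of 10.9 CPM in CD45- libraries. These ranges overlapped in most libraries, as only 2 CD45+ libraries lay above every CD45- library. The log2 fold change of Tlr4 was 0.93 with an interval of -0.13 to 1.99 (adjusted p = 0.144, edgeR). Myd88 (chr9:119335934-119341411, minus strand) ranged from 70.2 to 121 CPM with a median of 97.8 CPM in CD45+ libraries, and from 29.4 to 65.6 CPM with a median of 38.9 CPM in CD45- libraries. The fractions did not overlap, and the adaptor was higher in CD45+ cells by 1.20 on the log2 scale (edgeR, SE 0.15, adjusted p = 5.57e-06). Myd88 shares 290 exon bases, 11.3% of its exons, with Acaa1a on the other strand, so a part of its counts is uncertain.

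Over the 10 genes, 8 were higher in CD45+ cells and none was lower, Tlr3 and Tlr4 being those that did not pass. Of the 18778 genes tested, 24.5% were higher in CD45+ cells and 49.6% differed in either direction. The count was also 8 of 10 within Hoil1+/+ libraries, where 18.6% of all genes were higher, and 8 of 10 within Hoil1-/- libraries, where 17.5% were. Every CD45+ library lay above every CD45- library for 7 of the 10 genes and for 7.09% of the 17903 genes kept over all libraries. The median log2 ratio of the mean levels was 4.25 over the 10 genes, with Tlr9 at its bound, and -0.0035 over the 16529 kept genes with counts in both fractions. For Tlr5, Tlr6, Tlr7, Tlr8 and Tlr9, at least 1 genotype had no CD45- count, so ratios of means stand here in place of fitted fold changes. Their adjusted p were 0.000735 for Tlr5, 8.16e-05 for Tlr6, 1.33e-07 for Tlr7, 7.47e-06 for Tlr8 and 1.57e-09 for Tlr9 (edgeR). Where a library is a mixture of cells, fewer cells of a type and less RNA per cell cannot be told apart.

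**Figure D1:**
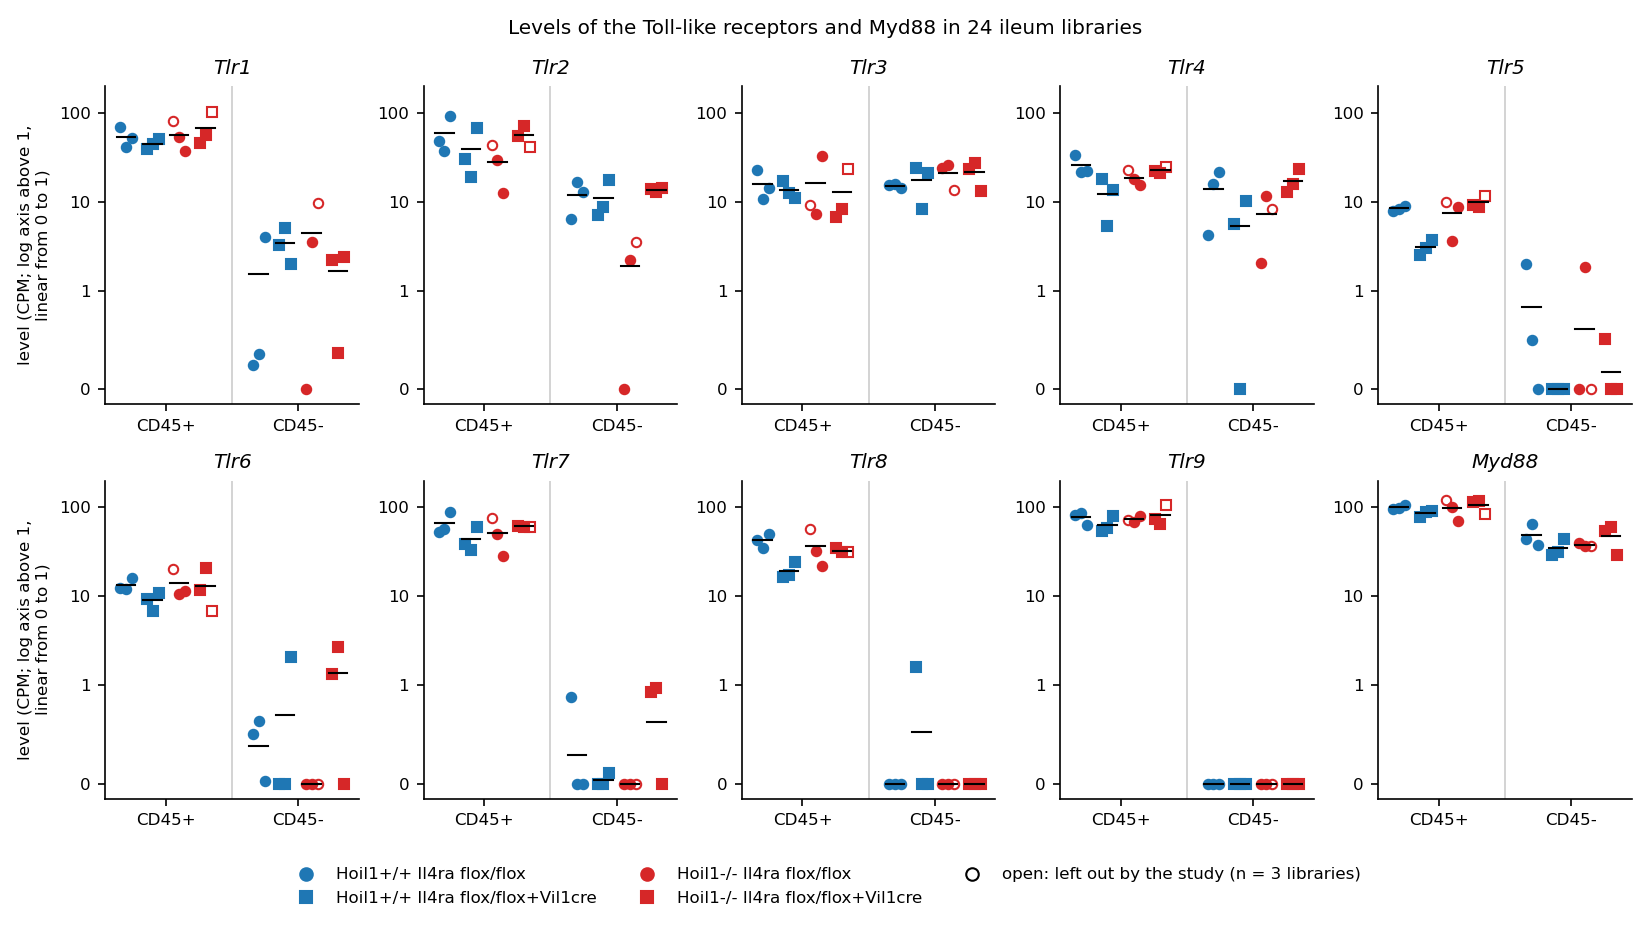
Level of each gene in CPM (y axis, logarithmic above 1 CPM and linear from 0 to 1) in each of the 24 libraries, by fraction and genotype, with a bar at the mean of the 3 libraries and open symbols for the 3 libraries that the study left out. Tlr9 lies between 54.1 and 106 CPM in CD45+ libraries and at 0 in all CD45- libraries, whereas Tlr3 overlaps between the fractions.

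Levels of different genes were compared per kilobase of annotated exon. In CD45+ cells Myd88 had the highest median with 38.0 CPM per kb, followed by Tlr9 with 20.8, Tlr1 with 15.2, Tlr7 with 14.4, Tlr2 with 13.96 and Tlr8 with 8.93 CPM per kb. Below them were Tlr4 with 3.85, Tlr6 with 3.11, Tlr3 with 2.27 and Tlr5 with 1.77 CPM per kb. Myd88 was above Tlr9 in all 12 libraries and Tlr8 was above Tlr4 in all 12. Neighbours that could not be ordered were Tlr7 and Tlr2, and Tlr4 and Tlr6, where the first was above the second in 6 of 12 libraries, and Tlr6 and Tlr3, where it was above in 7 of 12. In CD45- cells Myd88 again had the highest median per length with 15.1 CPM per kb, above Tlr2, the next gene, in all 12 libraries. Tlr2 and Tlr3 followed with medians of 3.55 and 3.51 CPM per kb and could not be ordered, Tlr2 being above Tlr3 in 6 of 12 libraries. Tlr4 had 1.96 and Tlr1 had 0.678 CPM per kb, and the medians of Tlr5, Tlr7, Tlr8 and Tlr9 were 0.

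**Figure D2:**
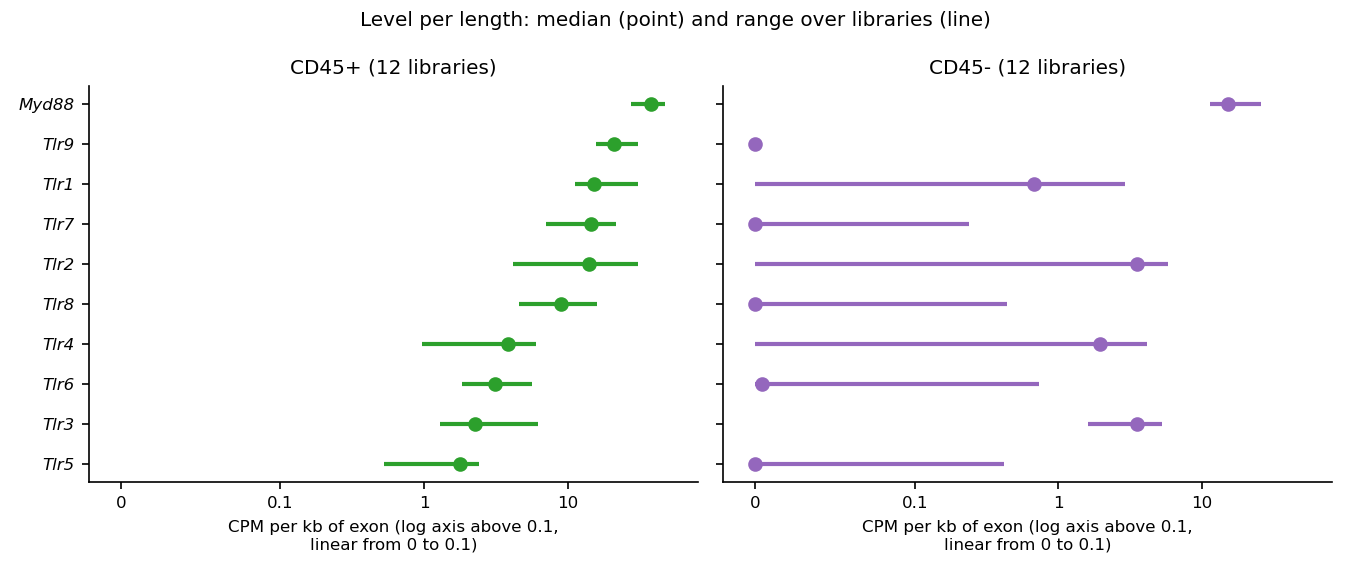
Level per kilobase of exon (x axis, logarithmic above 0.1 and linear below) of the 10 genes in the 12 libraries of each fraction, as the median (point) and the range (line). Myd88 has the highest median in both fractions, at 38.0 and 15.1 CPM per kb, and Tlr3 lies near the bottom in CD45+ cells and level with Tlr2 in CD45- cells.

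Promoter sequence from RefSeq (GRCm38.p6) was at hand for 8 of the 10 genes, without Tlr4 and Tlr7. The 250 bases before the start are shown for Tlr9, Tlr8 and Tlr5, 3 receptors with no count in most CD45- libraries whose windows hold no annotated exon. They are written 5′ to 3′ on the strand of the gene, from chr9:106222348-106222597 (plus strand), chrX:167264330-167264579 (minus strand) and chr1:182954538-182954787 (plus strand), with matches to 6 motifs on either strand in capitals.
Tlr9: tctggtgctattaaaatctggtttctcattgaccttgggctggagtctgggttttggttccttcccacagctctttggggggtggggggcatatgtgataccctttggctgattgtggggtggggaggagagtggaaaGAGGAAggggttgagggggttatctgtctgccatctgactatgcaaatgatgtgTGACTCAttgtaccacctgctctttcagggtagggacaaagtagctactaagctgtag
Tlr8: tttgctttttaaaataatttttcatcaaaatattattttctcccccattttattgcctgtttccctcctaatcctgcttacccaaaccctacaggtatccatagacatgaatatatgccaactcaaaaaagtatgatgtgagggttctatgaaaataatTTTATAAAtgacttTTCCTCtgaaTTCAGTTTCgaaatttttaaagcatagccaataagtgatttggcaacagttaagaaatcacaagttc
Tlr5: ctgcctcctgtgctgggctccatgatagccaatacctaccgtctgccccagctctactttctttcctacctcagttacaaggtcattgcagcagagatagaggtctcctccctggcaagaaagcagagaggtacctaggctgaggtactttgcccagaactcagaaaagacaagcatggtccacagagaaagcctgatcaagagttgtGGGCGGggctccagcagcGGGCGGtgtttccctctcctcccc
The motifs were the ETS and PU.1 core GAGGAA, a core of interferon response elements GAAANNGAA, an NF-κB motif GGGANTTCC, the AP-1 motif TGANTCA, the GC box GGGCGG and the TATA box TATAAA. A match on the other strand shows as the reverse complement, and the capitals of Tlr8 at the TATA box join 2 overlapping matches. Of 32851 promoter windows of this length, 23.3% held GAGGAA, 7.13% GAAANNGAA, 1.43% GGGANTTCC, 6.75% TGANTCA, 32.7% GGGCGG and 12.4% TATAAA. The Tlr9 window held GAGGAA from base -112 and TGANTCA from base -58, counted back from the start. The Tlr8 window held TATAAA from base -91, GAGGAA from base -77 and GAAANNGAA from base -67. The Tlr5 window held GGGCGG from bases -42 and -24 and no match to the other motifs. These matches are descriptions of letters and say nothing about binding.

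The rest of the pathway was followed with 55 genes in 8 lists. Between the fractions, 35 of the 55 were higher and 6 lower in CD45+ cells, beside the 24.5% of all genes that were higher. The other mouse receptors Tlr11, Tlr12 and Tlr13, which detect microbial protein or ribosomal RNA, were all 3 higher, with medians of 9.12, 145 and 83.6 CPM in CD45+ cells and 0 in CD45- cells. In receptor trafficking, 5 of 6 genes were higher and Lrrc59 was lower. Unc93b1, the chaperone that brings the endosomal receptors out of the endoplasmic reticulum, had a median of 818 CPM in CD45+ and 45.5 CPM in CD45- cells, and was higher by 4.15 on the log2 scale (edgeR, SE 0.18, adjusted p = 2.40e-10). Slc15a4, an endolysosomal transporter needed for TLR7 and TLR9 signaling, was higher by 2.24 (edgeR, SE 0.14, adjusted p = 4.32e-09).

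Among co-receptors and ligand carriers, 3 of 6 genes were higher (Cd14, Cd180 and Ly86) and 2 were lower. The lower ones were Lbp, the lipopolysaccharide-binding protein, with medians of 0 CPM in CD45+ and 28.7 CPM in CD45- cells, and the lipid receptor Cd36, with 43.8 and 413 CPM. Ly96, which encodes MD-2, did not pass, at medians of 7.72 and 4.36 CPM. Of 5 adaptors, Ticam2, Sarm1 and Pik3ap1 were higher, whereas Tirap and Ticam1, the adaptor that TLR3 uses in place of MYD88, did not pass. Pik3ap1, which links the receptors to phosphoinositide 3-kinase, was higher by 4.70 on the log2 scale (edgeR, SE 0.28, adjusted p = 3.13e-09). Ticam1 had medians of 49.4 CPM in CD45+ and 47.8 CPM in CD45- cells. Of 14 kinases and ligases 8 were higher and Tab1 was lower, and of 6 transcription factors Nfkb1, Rela, Rel and Irf5 were higher and Irf3 and Irf7 did not pass. Rel, which encodes the NF-κB subunit c-Rel, was higher by 3.70 (edgeR, SE 0.32, adjusted p = 1.18e-07). Of 10 inhibitors 6 were higher, among them Cyld, a deubiquitinase of linear and K63-linked chains, by 2.31 (edgeR, SE 0.14, adjusted p = 3.25e-09). Sigirr, an inhibitory receptor of the family, was lower, at medians of 14.4 and 37.0 CPM. Of the 5 interleukin-1 family receptor genes whose signals pass through MYD88, Il18r1, Il18rap and Il1rl2 were higher and Il1r1 was lower, at medians of 7.58 CPM in CD45+ and 67.4 CPM in CD45- cells.

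The CD45- libraries differed in their sums of cell type markers, and levels of the genes are given beside these sums. The summed level of 8 epithelial marker genes ranged from 1310 to 19132 CPM, and that of 6 blood endothelial marker genes ranged from 2104 to 15323 CPM. In the 6 libraries where the epithelial sum was above the endothelial sum, Tlr2 ranged from 0 to 14.1 CPM with a median of 6.75 CPM, and in the other 6 from 3.48 to 17.6 CPM with a median of 13.3 CPM. Tlr4 had medians of 4.90 CPM (0 to 22.99) and 14.2 CPM (8.31 to 21.3), and Myd88 had medians of 34.1 CPM (29.4 to 43.8) and 48.6 CPM (36.8 to 65.6). Tlr6 was found in 1 of 6 libraries on the epithelial side and in 5 of 6 on the endothelial side. Tlr3 showed little of this pattern, with medians of 19.7 CPM (8.31 to 25.8) and 18.3 CPM (13.4 to 27.5). All ranges overlapped, the libraries were split by marker sums and not by label, and no test was made of this split. Fibroblast markers moved with the endothelial ones, at 407 to 2354 CPM in the first 6 libraries and 2397 to 8654 CPM in the others, so these cell types cannot be told apart here. Markers of macrophages and monocytes summed to 17.8 to 86.1 CPM in CD45- and 4430 to 19971 CPM in CD45+ libraries. None of the 10 was at 0 in every CD45- library. Of them C1qa, C1qb and Cd68 had counts in all 12 CD45- libraries, C1qa with 1.44 to 30.5 CPM, whereas Adgre1 had counts in 4, at most 4.72 CPM, and Fcgr1 in 1. The part of such cells in the CD45- levels was not tested.

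**Figure D3:**
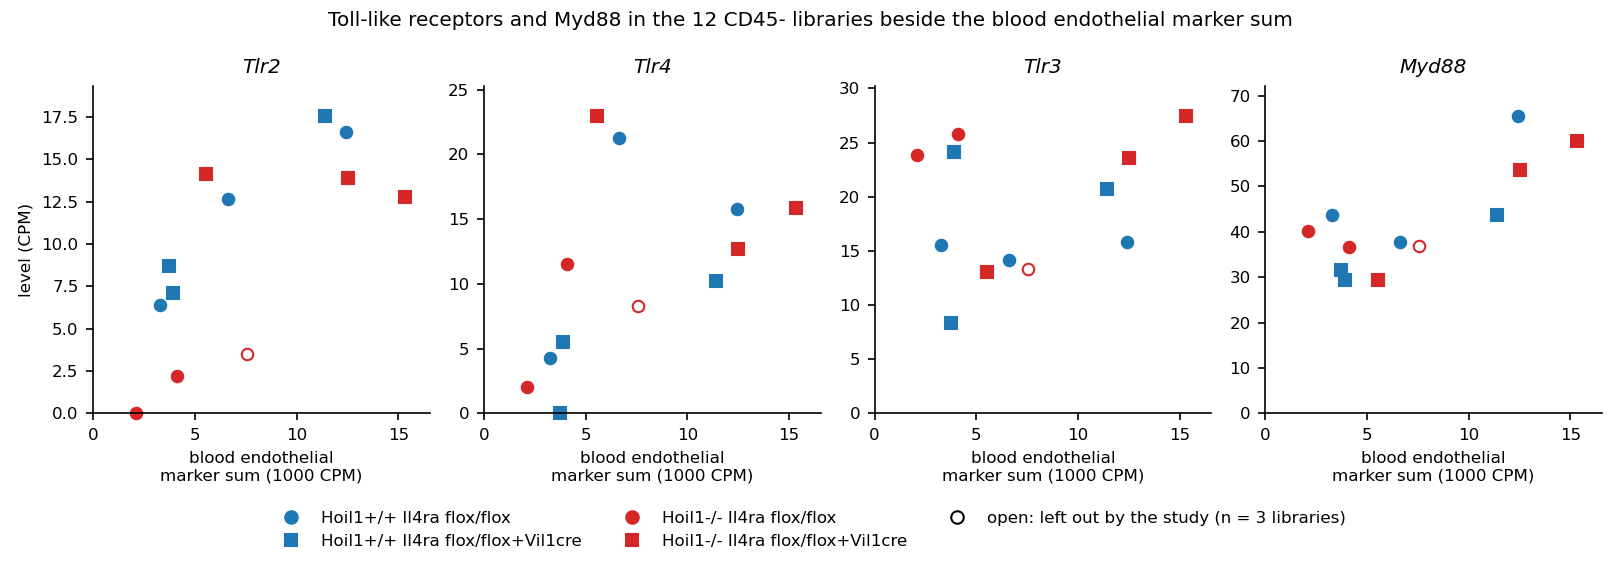
Level in CPM (y axis, from 0) of Tlr2, Tlr4, Tlr3 and Myd88 in the 12 CD45- libraries against the summed level of 6 blood endothelial marker genes (x axis, in 1000 CPM), with 1 symbol per library and open symbols for those left out by the study. The libraries with the lowest sums include those with Tlr2 and Tlr4 at 0, and Tlr3 shows no such order.

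In Hoil1-/- mice, no receptor changed past the threshold in CD45+ cells. Averaged over both Il4ra genotypes, an effect of Hoil1 was called for 0 of the 10 genes, 0 of 10 had an unadjusted p under 0.05 in edgeR, and DESeq2 also called 0. Of all 17029 genes tested, 0.00587% passed in edgeR, which is Rbck1 alone. Among all genes, 996 had an unadjusted p under 0.05 in edgeR, and DESeq2 called 126. The median log2 fold change was 0.03 over the 10 genes and -0.05 over all genes tested. The narrowest intervals were those of Myd88 and Tlr9. Myd88 had a log2 fold change of Hoil1-/- over Hoil1+/+ of 0.08 with an interval of -0.26 to 0.42, and Tlr9 had 0.00 with an interval of -0.37 to 0.37 (95% intervals, edgeR). Intervals were wider for Tlr2, at -0.41 (-1.32 to 0.50), Tlr3, at -0.30 (-1.19 to 0.60), and Tlr5, at 0.52 (-0.20 to 1.25). Leaving out single libraries or adding the 3 that the study removed turned the sign of several of these small values without a call.

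In CD45- cells, 8 of the 10 genes could be tested, as Tlr8 and Tlr9 had too few counts. None was called by edgeR or DESeq2, against 0.0182% of 16453 genes in edgeR and 168 of them in DESeq2. The difference between the Hoil1 effects of the fractions was called for none of the 10 genes and for 0.0266% of 18778 genes in edgeR. For this difference 0 of 10 and 1029 of all genes had an unadjusted p under 0.05, and DESeq2 called 0 of 10 and 262 of all. Tlr2 had the only unadjusted p under 0.05 for the averaged Hoil1 effect, which 5.28% of all genes had, at a log2 fold change of -1.54 (edgeR, SE 0.69, unadjusted p = 0.0461, adjusted p = 0.927). In flox/flox mice Tlr2 was at 6.38, 16.6 and 12.7 CPM in the Hoil1+/+ libraries and at 0 and 2.20 CPM in the Hoil1-/- libraries, with 3.48 CPM in the library that the study removed. All 3 Hoil1-/- values were below all 3 Hoil1+/+ values, and how many of all genes did the same was not counted. In Vil1cre mice Tlr2 was at 7.12, 8.70 and 17.6 CPM in Hoil1+/+ and at 13.9, 12.8 and 14.1 CPM in Hoil1-/- libraries, which overlapped. In edgeR Tlr2 did not pass within flox/flox mice (log2 fold change -3.38, SE 1.13, adjusted p = 0.336), where 0.0365% of all genes did. An unadjusted p under 0.05 was found there for 1 of 8 genes, Tlr2, and for 2161 of all 16453 genes. In DESeq2 Tlr2 passed (-3.35, adjusted p = 0.0209), as did 613 of all 16453 genes.

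The tested libraries behind that difference also differed in their cell type markers. The 2 tested Hoil1-/- flox/flox CD45- libraries had the highest epithelial marker sums of all 12, at 19132 and 18005 CPM, and endothelial sums of 2104 and 4101 CPM, whereas the Hoil1+/+ flox/flox libraries had epithelial sums of 2092 to 9356 CPM and endothelial sums of 3270 to 12427 CPM. The removed Hoil1-/- flox/flox library, with Tlr2 at 3.48 CPM, had epithelial and endothelial sums of 3830 and 7558 CPM, within the Hoil1+/+ flox/flox ranges. Its fibroblast marker sum of 7082 CPM lay above the Hoil1+/+ flox/flox range of 520 to 4243 CPM. Markers of smooth muscle and pericytes summed to 419 to 1815 CPM in the 3 Hoil1-/- flox/flox and 2774 to 4377 CPM in the Hoil1+/+ flox/flox libraries. The library without a Tlr2 count held 12.1 M counts, at which 3 counts are 0.238 CPM. When the Hoil1-/- flox/flox replicate 2 was left out, that library stood alone for its group, and Tlr2 was called with a fold change that rests on its 0 (averaged log2 fold change -5.41, adjusted p = 0.0263, edgeR). Hematopoietic markers summed to 42.8 to 142 CPM in the 3 Hoil1-/- flox/flox and 1.26 to 26.7 CPM in the other 9 CD45- libraries. Of these markers Rac2 reached 104 CPM in CD45- libraries, and Ptprc, Cd52, Coro1a and Laptm5 at most 16.1, 6.98, 14.5 and 20.8 CPM. Tuft cell markers summed to 37.1, 419 and 548 CPM in the 3 Hoil1-/- flox/flox and 22.8 to 57.1 CPM in the other 9 libraries. The part of the cell mixture in the Tlr2 levels was not tested. Within Vil1cre mice no gene of the 10 was called in CD45- cells, against 0.00608% of all genes. There 0 of 8 and 1261 of all 16453 genes had an unadjusted p under 0.05, and DESeq2 called 0 of 8 and 138 of all. Tlr3, Tlr4 and Myd88 had averaged log2 fold changes of 0.49 (-0.17 to 1.15), 0.34 (-1.46 to 2.14) and 0.05 (-0.47 to 0.57) in CD45- cells.

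**Figure D4:**
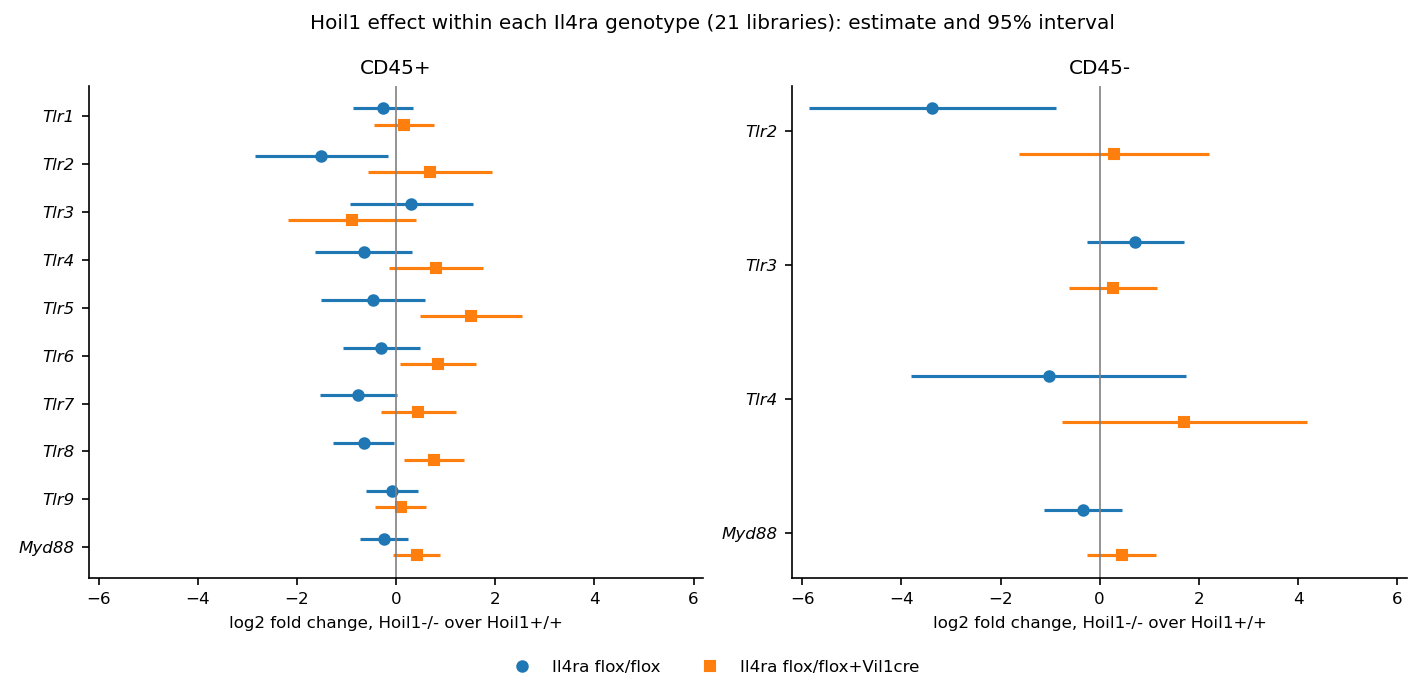
Log2 fold change of Hoil1-/- over Hoil1+/+ (x axis) within flox/flox (circles) and Vil1cre mice (squares) for the 10 genes in CD45+ cells and for Tlr2, Tlr3, Tlr4 and Myd88 in CD45- cells, with 95% intervals from edgeR over 21 libraries. In CD45+ cells 9 of 10 Vil1cre values lie above 0 and 9 of 10 flox/flox values below it, with none called. The medians over the 10 genes are 0.56 and -0.38, and over all genes tested -0.06 and 0.0. With the removed libraries included, 9 of 10 Vil1cre and 3 of 10 flox/flox values lie above 0.

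Deletion of Il4ra in the epithelium, averaged over the Hoil1 genotypes, was called for none of the genes in either fraction. In CD45+ cells 0.00587% of all genes passed. None of the 10 genes, and 1805 of all 17029 genes, had an unadjusted p under 0.05, and DESeq2 called 0 of the 10 and 341 of all genes. In CD45- cells 0.0% of all genes passed, with 1 of 8 genes, Tlr2, and 5.9% of all genes at an unadjusted p under 0.05. There DESeq2 called 0 of the 8 and 159 of all genes. The interaction of Hoil1 and Il4ra asks whether the Hoil1 effect differs between the Il4ra genotypes. In CD45+ cells it was called for none of the 10 genes and 0.0% of all genes in edgeR. DESeq2 also called none of the 10, against 160 of all 17029 genes. An unadjusted p under 0.05 was found for 6 of 10 genes (Tlr2, Tlr4, Tlr5, Tlr6, Tlr7 and Tlr8) and for 7.01% of all genes. The interaction was positive for 9 of 10, with a median of 1.17 on the log2 scale over the 10 genes and -0.11 over all genes. With all 12 CD45+ libraries, 2 of 10 genes, Tlr4 and Tlr5, had such a p. Without the Hoil1-/- flox/flox replicate 3, and likewise without the Hoil1-/- Vil1cre replicate 2, there were 2, Tlr5 and Tlr8, and without the Hoil1+/+ flox/flox replicate 3 there were 3. Without the Hoil1+/+ Vil1cre replicate 1 or 2, or the Hoil1-/- Vil1cre replicate 1, there were 4, and without any other single library 5 or 6. The smallest adjusted p was that of Tlr8, with an interaction of 1.41 (edgeR, SE 0.38, adjusted p = 0.608). In CD45- cells the interaction was likewise called for none of 8 genes and 0.0% of all genes in edgeR, with Tlr2 the only one at an unadjusted p under 0.05, where 20.7% of all genes were. DESeq2 called Tlr2 (3.64, adjusted p = 0.0467), as it did 1466 of all 16453 genes.

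For some of the genes, the levels behind the CD45+ interaction differed between the Il4ra genotypes in Hoil1+/+ mice and in the tested Hoil1-/- libraries. Tlr8 was at 42.6, 35.0 and 50.1 CPM in Hoil1+/+ flox/flox and at 16.5, 17.4 and 24.4 CPM in Hoil1+/+ Vil1cre libraries. Tlr5, the flagellin receptor, was at 7.89, 8.30 and 8.95 CPM in the former and at 2.50, 3.01 and 3.72 CPM in the latter. Neither gene overlapped between these genotypes. In Hoil1-/- mice Tlr8 was at 32.5 and 22.04 CPM in flox/flox and 35.3 and 31.5 CPM in Vil1cre libraries, with 57.1 and 31.4 CPM in the CD45+ libraries that the study removed, and Tlr5 was at 3.58 and 8.75 CPM against 9.12 and 8.69 CPM, with 10.0 and 11.6 CPM in the removed ones. The Hoil1-/- genotypes overlapped for both genes, in the tested libraries alone and with the removed ones included. Tlr4, Tlr5, Tlr6, Tlr8 and Myd88, 5 of the 10 genes, were lower in every Hoil1+/+ Vil1cre than in every Hoil1+/+ flox/flox CD45+ library, as were 6.23% of 16060 genes, and none was higher in every one. In Hoil1-/- mice the tested libraries went the other way for 5 of the 10 genes, Tlr2, Tlr4, Tlr6, Tlr7 and Myd88, which were higher in both Vil1cre than in both flox/flox libraries, as were 20.4% of 16060 genes, and none was lower. With the removed libraries included, none of the 10 was free of overlap in Hoil1-/- mice. Tlr2 was at 29.1 and 12.6 CPM in the tested Hoil1-/- flox/flox libraries and at 54.2 and 71.9 CPM in the Vil1cre ones, with 43.0 and 41.1 CPM in the removed ones. In Hoil1+/+ mice Tlr2 overlapped, at 37.0 to 92.8 CPM in flox/flox and 18.8 to 67.4 CPM in Vil1cre libraries. Tlr7, the receptor of single-stranded RNA, was at 28.5 to 49.9 CPM and 60.8 to 61.4 CPM in the tested Hoil1-/- and at 53.3 to 88.4 CPM and 33.1 to 60.8 CPM in the Hoil1+/+ libraries of these genotypes. Within Vil1cre mice, the Hoil1 effect had an unadjusted p under 0.05 for Tlr5, Tlr6 and Tlr8, 3 of the 10 genes and 6.08% of all genes, with log2 fold changes of 1.51, 0.84 and 0.76. Leaving out the Hoil1+/+ Vil1cre replicate 2 left Tlr5 alone. None of the 10, and 0.0% of all genes, was called within Vil1cre or within flox/flox mice in CD45+ cells, by edgeR. DESeq2 called none of the 10, against 159 of all 17029 genes within Vil1cre and 93 within flox/flox mice. Within flox/flox mice 2 of 10, and 5.27% of all genes, had an unadjusted p under 0.05, Tlr2 and Tlr8, with log2 fold changes of -1.51 and -0.65, and none without the Hoil1-/- flox/flox replicate 3 or the Hoil1+/+ flox/flox replicate 3. With all 12 libraries none of the 10 had such a p there, and Tlr2 was at -1.09 and Tlr8 at -0.22.

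Several lists of cell type markers differed between the same libraries. The summed level of 10 macrophage and monocyte marker genes was 8524 to 15449 CPM in Hoil1+/+ flox/flox and 4430 to 7417 CPM in Hoil1+/+ Vil1cre libraries. In the tested Hoil1-/- libraries it was 7052 and 7237 CPM in flox/flox and 8221 and 8003 CPM in Vil1cre mice, and it was 19971 and 13484 CPM in the removed ones. All 10 of these markers had counts in CD45+ cells. Markers of eosinophils and mast cells summed to 605 to 1235 CPM in Hoil1+/+ flox/flox and 193 to 206 CPM in Hoil1+/+ Vil1cre libraries, and those of plasma cells to 20006 to 49620 CPM and 12070 to 16366 CPM. Fibroblast markers, at 38.9 to 71.4 CPM and 18.5 to 26.2 CPM, and tuft cell markers, at 6.46 to 11.96 CPM and 2.90 to 5.70 CPM, were also lower with Vil1cre. The other lists overlapped. Dendritic cell markers summed to 439 to 603 CPM and 475 to 670 CPM, B cell markers to 222 to 651 CPM and 440 to 1460 CPM, T cell markers to 503 to 2858 CPM and 595 to 3066 CPM, and those of group 2 innate lymphoid cells to 58.7 to 131 CPM and 116 to 228 CPM. Tlr9, at 63.7 to 85.9 and 54.1 to 79.6 CPM in these genotypes, overlapped. Some of these sums rested on few of the listed genes. Of the tuft cell markers, Il25 had no count in CD45+ libraries, Dclk1 and Pou2f3 had counts in 3 each, and Avil had 2.90 to 10.8 CPM. Of the eosinophil and mast cell markers, Epx had no count there and Mcpt1 had 95.8 to 1121 CPM. Jchain, a plasma cell marker, had 8179 to 46247 CPM. The part of the cell mixture in the levels of the receptors was not tested.

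**Figure D5:**
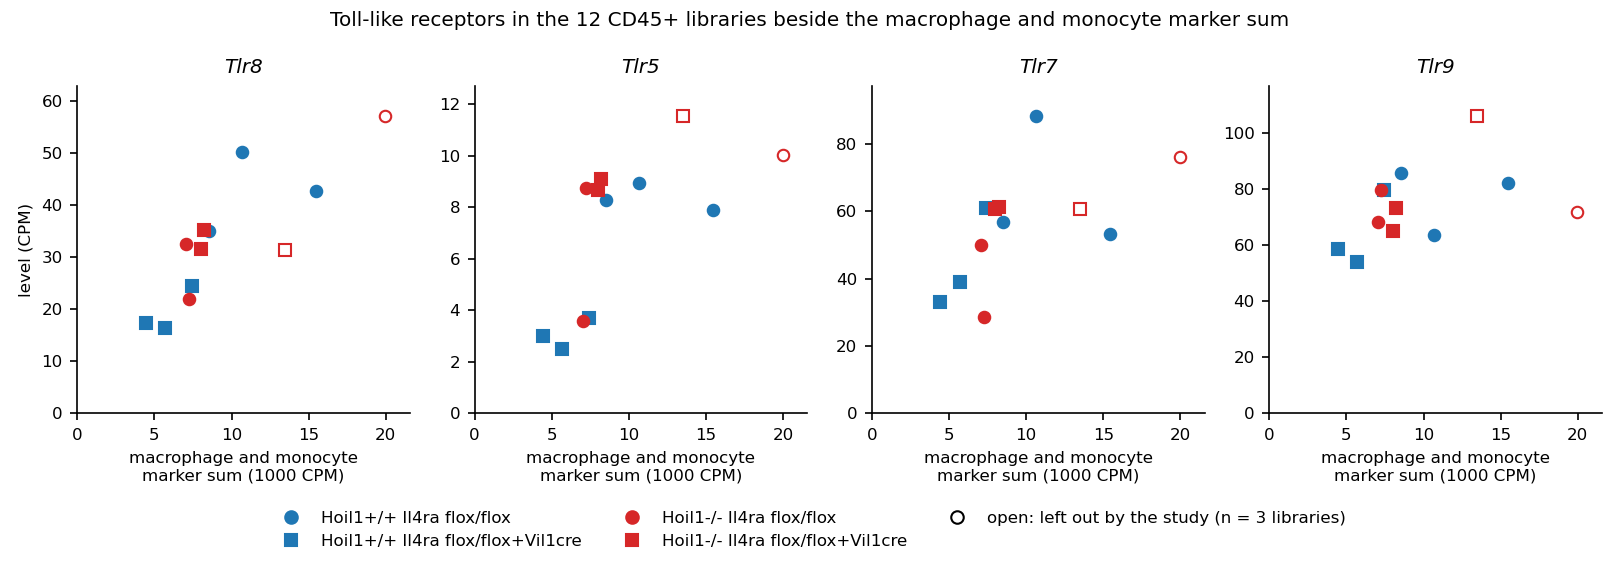
Level in CPM (y axis, from 0) of Tlr8, Tlr5, Tlr7 and Tlr9 in the 12 CD45+ libraries against the summed level of 10 macrophage and monocyte marker genes (x axis, in 1000 CPM), with 1 symbol per library and open symbols for those left out by the study. The Hoil1+/+ Vil1cre libraries have sums of 4430 to 7417 CPM and Tlr8 at 16.5 to 24.4 CPM.

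The 10 genes varied to unequal degrees among CD45+ libraries. Myd88 and Tlr9 varied least, with SDs of 16.2% and 18.9% of their means over 12 libraries, and Tlr3 and Tlr2 most, with 53.9% and 50.9%. Over these libraries, Tlr2 and Tlr7 had the highest correlation of any pair of the genes (Pearson's r = 0.895 of log2 CPM, n = 12) and Tlr3 and Myd88 the lowest (r = -0.791). For each gene, the genes with the most similar pattern over the 12 libraries of a fraction were listed as a description. For Tlr7 in CD45+ cells the nearest was C5ar1, the receptor of the complement fragment C5a (r = 0.965, Spearman's rho = 0.958), followed by Cebpd and C130050O18Rik. For Tlr2 they were Trim47 (r = 0.965, rho = 0.958), Mcl1 and Clec4e, a receptor of mycobacterial glycolipid. For Tlr8 they were Man1c1 (r = 0.938, rho = 0.916), Alox5, the 5-lipoxygenase, and Serpinb8.

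For Tlr5 the nearest was Cmklr1, the chemerin receptor (r = 0.923, rho = 0.748), then Tdrd7 and Col6a1. Tlr6 was nearest to Fignl2 (r = 0.970, rho = 0.879), then Apbb2 and Sod3, all of which were at medians of at most 2.15 CPM. Tlr1 was nearest to Sumo3 (r = 0.935, rho = 0.909), then Eif5a and Ms4a6d, and Myd88 to P2rx1 (r = 0.919, rho = 0.979), then Ier3 and G0s2. Lower values were found for Tlr4, nearest to Atp2a2 (r = 0.902, rho = 0.790), then Il15 and Tceal8, and for Tlr9, nearest to Hdhd2 (r = 0.881, rho = 0.832), then Rcan3 and Zfp518b. Tlr3 was followed over the 12 CD45- libraries, where Wdr3 was the nearest (r = 0.956, rho = 0.923), then Kctd9 and Pank1. Each list holds the best of 15686 genes in CD45+ or 15233 in CD45- cells over only 12 libraries that share mixture and depth, and the values are given without a p.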

How the data were processed

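RNA of CD45+ and CD45- ileum cells was sequenced, and the authors deposited raw read counts on 39056 genes in 24 libraries, made per the labels and methods with STAR on mm10 (GRCm38) and featureCounts. The strand setting and the handling of reads on several genes are not given in the sources used here. Gene IDs were matched without version to GENCODE M21 symbols (38872 matched). Rows without a symbol stayed in library sizes. No library was identical to another.

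Tests used edgeR 4.0.16 in R 4.3.3 (quasi-likelihood, TMM scaling, minimum count 10, minimum total 15, Benjamini-Hochberg adjustment over all genes tested, threshold 0.05, two-sided) on the 10 CD45+ and 11 CD45- libraries of the study's list. The difference between fractions came from 1 fit of both, with a mean for each of 8 groups, and all other contrasts from a fit of each fraction. Labels do not say which CD45+ and CD45- libraries share a mouse, so that p-values treat them as independent. The labels do not name the mice, but the study describes its CD45+ values as 1 mouse per sample. For CD45- libraries this is not given in the sources used here, and p-values measure the spread between libraries. Both sexes were used per the study, and sex was not part of the fits, although Tlr7 and Tlr8 lie on the X chromosome. CPM were scaled by TMM over all 24 libraries, and per-kilobase levels used the summed exon length. Intervals and 3-count limits cover counting error or library spread only. Alternatives were all 24 libraries, RLE size factors, no filter, DESeq2 1.42.0, edgeR's likelihood ratio test, removal of immunoglobulin genes, leaving out each library, the fraction effect within each Hoil1 genotype, and CPM by total counts. On simulated counts with 100 genes changed by 2 on the log2 scale, 98 were called for the fraction effect, and 92 and 90 for the Hoil1 effect in CD45+ and CD45- cells. With a change of 1 the numbers were 72, 31 and 31. These counts were drawn with the same dispersion for every gene and without differences in cell mixture. The SE of the averaged Hoil1 effect in CD45- cells was 0.24 for Myd88 and 0.30 for Tlr3. It was 0.69 for Tlr2, 0.82 for Tlr4, 1.19 for Tlr1 and 1.81 for Tlr5, so the simulated numbers need not hold for these genes.

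The genes, the 8 pathway lists and the 20 lists of cell type markers (119 genes) were chosen with earlier results of these data known. Named were the 10 genes, Rbck1, Ptprc and Epcam, at most 6 pathway genes with the smallest adjusted p per contrast (for the fraction effect Unc93b1, Pik3ap1, Cyld, Slc15a4, Tlr13 and Rel), and for each of the 10 genes the 3 genes with the highest Pearson's r of log2(CPM + 0.5) in the fraction with its higher median, without immunoglobulin and T-cell receptor segments. Other pathway and marker genes that the text names were chosen after their values were seen.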

Additional observations from a re-analysis of the deposited data

How the results depend on the processing

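The count of the 10 genes called for the fraction effect was 8, all higher, with all libraries, RLE factors, no filter, the likelihood ratio test and without immunoglobulin genes, and 8 to 9 when 1 library was left out. DESeq2 called 7 higher and 1, Tlr3, lower, and gave no adjusted p for Tlr6. For the Hoil1, Il4ra and interaction contrasts none of the 10 genes was called under any of these settings in CD45+ cells. In CD45- cells DESeq2 called 1 gene, Tlr2, for the Hoil1 effect in flox/flox mice and 1, again Tlr2, for the interaction. Leaving out single libraries gave 0 to 1 genes for the Hoil1 effect in CD45- cells, for that effect in flox/flox mice, for the Il4ra effect and for the interaction there, and for the difference between the Hoil1 effects of the fractions. The 1 was in each case Tlr2 without the Hoil1-/-Il4raflox/flox replicate 2, which left 1 library with 0 counts in that group, assumed to vary like the other groups. With all libraries the Hoil1 effect in CD45+ cells reversed for Tlr1 (0.34) and Tlr7 (0.050). With 1 library left out at a time it ranged from -0.20 to 0.063 for Tlr1, -1.02 to 0.058 for Tlr3, -0.10 to 0.26 for Tlr4, -0.40 to 0.017 for Tlr7, -0.11 to 0.18 for Tlr8, -0.060 to 0.10 for Tlr9 and -0.068 to 0.20 for Myd88 in CD45+ cells, and from -0.50 to 0.80 for Tlr4 and -0.032 to 0.18 for Myd88 in CD45- cells. The CD45+ interaction of Tlr3 ranged from -1.91 to 0.24. None of these reversed values was called, and their cause was not tested. The median levels kept within 1 SD with CPM by total counts. Over all genes, DESeq2 called 126 for the Hoil1 effect in CD45+ and 168 in CD45- cells against 1 and 3 in edgeR, 160 and 1466 for the interaction against 0 and 0, 341 and 159 for the Il4ra effect against 1 and 0, and 262 for the difference between fractions against 5. Within flox/flox mice it called 93 and 613 against 0 and 6, and within Vil1cre mice 159 and 138 against 0 and 1. The likelihood ratio test called 51 to 1223 in these contrasts, and with all libraries edgeR called 0 to 2. No paired analysis was possible because the replicate numbers follow the order of deposit and the labels name no mice. Ages recur in both fractions of a genotype, but some are shared by several libraries and others occur in 1 fraction alone, so pairs were not inferred from them. In CD45- libraries where Tlr5 to Tlr9 had no count, depth allows levels of up to the 3-count level. Where they had counts these ranged from 1 to 176, both for Tlr6.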
